A study of Mus musculus with 10 samples.

Results

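The unfolded protein response and folding machinery of the endoplasmic reticulum (ER) was described here through 34 genes, all of which were measured among the 18193 genes of the arrays. The genes were taken from a list of pathway members, and each was read from 1 probe set that names no other gene, the one with the highest average level across the 10 arrays. Total RNA had been taken from lower-incisor dental mesenchyme of wild-type C57BL/6J mice at postnatal day 60. On 1 side the inferior alveolar nerve, which supplies sensation to the lower teeth, had been resected 2 weeks earlier. That side gave 5 denervated arrays and the opposite side 5 contralateral arrays; arrays of equal number were taken as both incisors of 1 mouse. All 5 mice carried the operation, no sham-operated side was among the samples, the sex was not determined, and the labels do not say whether a sample was a single tooth. Values are log2 intensities per probe set. A difference is denervated minus contralateral on that scale, and levels of different genes are not compared, since each probe set has its own response.

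The ER folds and modifies secreted proteins. When unfolded proteins accumulate there, membrane sensors encoded by Eif2ak3 (PERK), Ern1 (IRE1) and Atf6 start the unfolded protein response. PERK lowers translation and favours the factor ATF4, IRE1 splices the mRNA of the factor XBP1, and cleaved ATF6 enters the nucleus; together they induce chaperones, disulfide isomerases and the machinery that returns misfolded proteins to the cytosol for degradation. Odontoblasts and ameloblasts, which secrete dentin and enamel matrix, are cells with a heavy secretory load. Splicing of Xbp1, cleavage of ATF6 and phosphorylation of PERK are not read by these arrays.

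Several of the chaperone genes shared a promoter element. RefSeq promoter windows of 300 bases, 250 before and 50 after the annotated start in mouse build GRCm38.p6, matched 28 of the 34 members; Hyou1, Hspa13, Manf, Atf6, Derl1 and Sec61a1 had none, and Derl2 had several. The windows were searched on both strands for the ER stress response element (ERSE), which is CCAAT and CCACG separated by 9 bases and is read by ATF6 and XBP1 together with NF-Y. The element occurred in 9 of the 28 members (32.1%), against 37 of the 27025 genes with a window (0.137%). The shorter form ERSE-II, ATTGG and CCACG separated by 1 base, occurred in 2 of the 28 (7.14%), Dnajb11 and Herpud1, against 0.0444% of genes. No member had both forms. The 12 matches lay in 11 members, among them the degradation genes Herpud1, Syvn1 and Derl3. The chaperone and isomerase genes Dnajb9, Sdf2l1, Pdia3 and Pdia4 had a window and neither form. Only exact matches were counted, so imperfect copies and copies outside the windows were not seen. All 12 matches are shown. The capitals are the element, with 8 flanking bases on each side, 5′ to 3′ on the strand of the gene. A match on the opposite strand reads CGTGG first.
Hspa5 (chr2:34772017-34772051, plus strand): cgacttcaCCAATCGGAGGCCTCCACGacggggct
Hsp90b1 (chr10:86705630-86705664, minus strand): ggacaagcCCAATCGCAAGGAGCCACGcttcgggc
Hsp90b1 (chr10:86705525-86705559, minus strand): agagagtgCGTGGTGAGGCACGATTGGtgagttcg
Dnajb11 (chr16:22857844-22857870, plus strand): cggcggcgATTGGCCCACGcctggctg
Dnajc3 (chr14:118937819-118937853, plus strand): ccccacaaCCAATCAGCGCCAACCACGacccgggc
Creld2 (chr15:88819512-88819546, plus strand): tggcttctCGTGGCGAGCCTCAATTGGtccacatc
Calr (chr8:84847067-84847101, minus strand): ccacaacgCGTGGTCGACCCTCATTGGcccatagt
Canx (chr11:50325792-50325826, minus strand): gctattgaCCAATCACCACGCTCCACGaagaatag
Pdia6 (chr12:17266483-17266517, plus strand): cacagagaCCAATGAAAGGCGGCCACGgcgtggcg
Herpud1 (chr8:94386369-94386395, plus strand): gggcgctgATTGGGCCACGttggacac
Syvn1 (chr19:6046524-6046558, plus strand): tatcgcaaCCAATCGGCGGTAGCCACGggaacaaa
Derl3 (chr10:75893234-75893268, plus strand): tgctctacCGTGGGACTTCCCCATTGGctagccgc

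The elements were spread over the window. Counting the first base after the 250 upstream bases as 0, the element of Hspa5 spanned -65 to -47, that of Syvn1 -44 to -26 and that of Pdia6 -98 to -80. Those of Dnajc3 (-105 to -87), Creld2 (-126 to -108), Canx (-145 to -127), Derl3 (-156 to -138) and Calr (-162 to -144) began farther upstream. The ERSE-II of Herpud1 spanned -52 to -42, and the ERSE-II of Dnajb11 lay past the start at 7 to 17. Hsp90b1 carried 2 copies in opposite orientation, at -212 to -194 and -107 to -89. The 250 upstream bases of Hspa5 and Hsp90b1, the genes of the abundant ER chaperones BiP and endoplasmin, place the elements in context, with the elements again in capitals.
Hspa5 (chr2:34771840-34772089, plus strand): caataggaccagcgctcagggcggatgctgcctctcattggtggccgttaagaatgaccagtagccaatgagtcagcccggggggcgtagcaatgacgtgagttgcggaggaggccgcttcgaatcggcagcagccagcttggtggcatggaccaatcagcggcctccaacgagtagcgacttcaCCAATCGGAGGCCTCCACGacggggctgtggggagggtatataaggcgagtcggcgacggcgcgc
Hsp90b1 (chr10:86705445-86705694, minus strand): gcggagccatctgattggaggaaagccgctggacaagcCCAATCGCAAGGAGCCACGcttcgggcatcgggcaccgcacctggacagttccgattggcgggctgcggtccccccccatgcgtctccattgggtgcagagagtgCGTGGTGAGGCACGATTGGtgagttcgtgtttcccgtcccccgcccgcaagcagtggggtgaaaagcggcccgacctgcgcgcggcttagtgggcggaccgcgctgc

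Some of the ATF4 targets held a different element. The core of the amino acid response element (TGATG and AA separated by 1 base) is bound by ATF4 with C/EBP partners. It was found in 4 of the 28 members (14.3%), Asns, Chac1, Trib3 and Herpud1, against 4.51% of all genes with a window, so that 3 of the 4 members grouped here as targets of ATF4 and of its partner CHOP held it and Ppp1r15a did not. The core lay upstream in Asns (-23 to -16), Chac1 (-193 to -186) and Herpud1 (-112 to -105) and past the start in Trib3 (14 to 21). Herpud1 was the member with both this core and an ERSE-II. The core of the unfolded protein response element (TGACG followed directly by TGG) was found in 0 of the 28 windows and in 0.714% of all genes; this says only that these letters are not in the windows. The capitals mark the core, and a match on the opposite strand begins with TT.
Trib3 (chr2:152344031-152344054, minus strand): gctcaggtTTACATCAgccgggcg
Asns (chr6:7693217-7693240, minus strand): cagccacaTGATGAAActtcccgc
Chac1 (chr2:119351041-119351064, plus strand): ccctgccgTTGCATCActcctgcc
Herpud1 (chr8:94386309-94386332, plus strand): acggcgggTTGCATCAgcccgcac

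**Figure D1:**
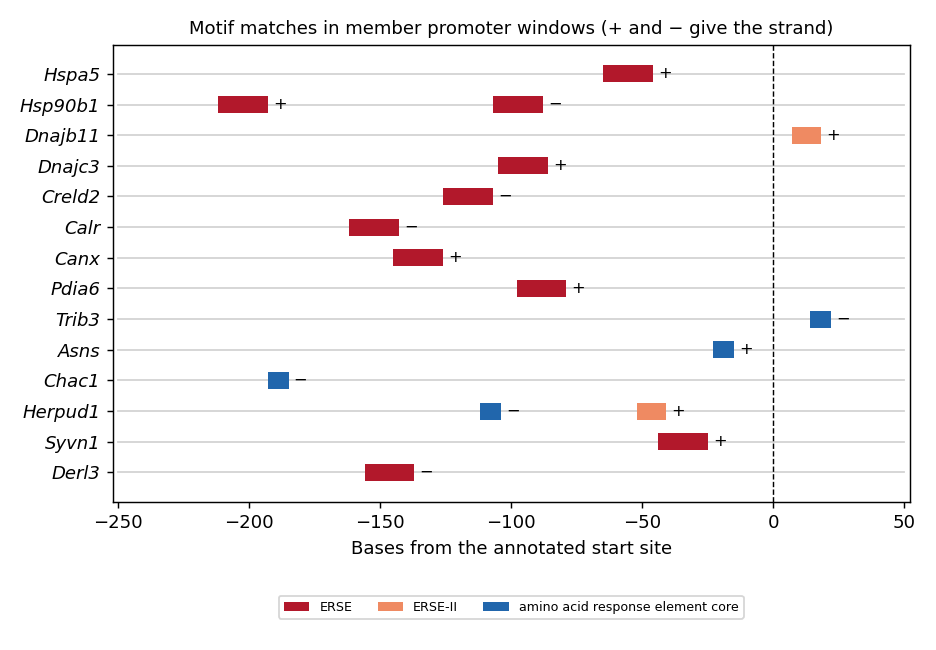
Position of each match in the promoter windows of the 14 members that held one, in bases from the annotated start site (dashed line). Red bars are ERSE, orange bars ERSE-II and blue bars the amino acid response element core, and the sign gives the strand; the ERSE bars lie between -212 and -26.

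No member passed the test between denervated and contralateral incisors after correction over all genes. In limma's test with Benjamini-Hochberg adjustment 0 of the 34 members passed the threshold of 0.05 on the adjusted p, against 0% of all 18193 genes, and the smallest adjusted p of a member was 0.793, for Pdia4. At an unadjusted p under 0.05 there were 0 members, against 6.21% of all genes (2.11% lower and 4.1% higher). With the mouse as a block again 0 members and 0% of genes passed (smallest adjusted p of a member 0.399), and 3 members, Pdia4, Manf and Hyou1, had an unadjusted p under 0.05 (8.82%, against 9.92% of all genes). These 3 members were all lower, against 2.93% of all genes lower and 6.99% higher. The differences of single members are therefore values without a call, and each member has an adjusted p of 0.793 or above in the fit without the block. The differences were small. They ran from -0.45 for Chac1 to 0.11 for Edem1, 31 of the 34 were under 0.25 in size, and the 95% confidence interval lay within 0.5 on both sides for 27 members, or for 32 with the mouse as a block.

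The means of 27 of the 34 members were lower on the denervated side and those of 7 were higher (79.4% lower, against 44.2% of all genes, and 20.6% higher, against 55.8%). Of the 31 members with a mean of at least 4, 25 were lower (80.6%, against 36.1% of the genes at that level). The median difference was -0.09, against 0.02 over all genes. In all 5 mice 6 members were lower, Hspa5, Hyou1, Manf, Pdia3, Pdia4 and Eif2ak3 (17.6%, against 3.8% of all genes), and 0 were higher (against 6.58% of all genes). Among genes with a mean of at least 4 the shares were 19.4% of members against 3.41% of genes for lower, and 0 members against 9.18% of genes for higher. For no member did the groups separate, against 0.423% of all genes with every denervated array below every contralateral one and 0.528% the other way. In the fit without the block the counts changed when denervated arrays 2 and 3 were left out. Both arrays stand apart in cell type markers, and the part of cell types in the counts was not tested. Without these 2 arrays 16 members were lower and 18 higher and the median was 0.00, while 50.9% of all genes were lower. That fit kept contralateral arrays 2 and 3, so that the sides no longer held the same mice. With the mouse as a block and without mice 2 and 3, 24 were lower and 10 higher, and 52% of all genes were lower. Leaving out contralateral array 4 or denervated array 2 singly, with the other incisor of the mouse kept and no block, 21 were lower and 13 higher. Without denervated array 3 alone, 27 were lower and 7 higher. In mice 1, 4 and 5 by themselves 11 members were lower in each mouse (32.4%, against 15.5% of all genes) and 4 higher (11.8%, against 14% of all genes).

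**Figure D2:**
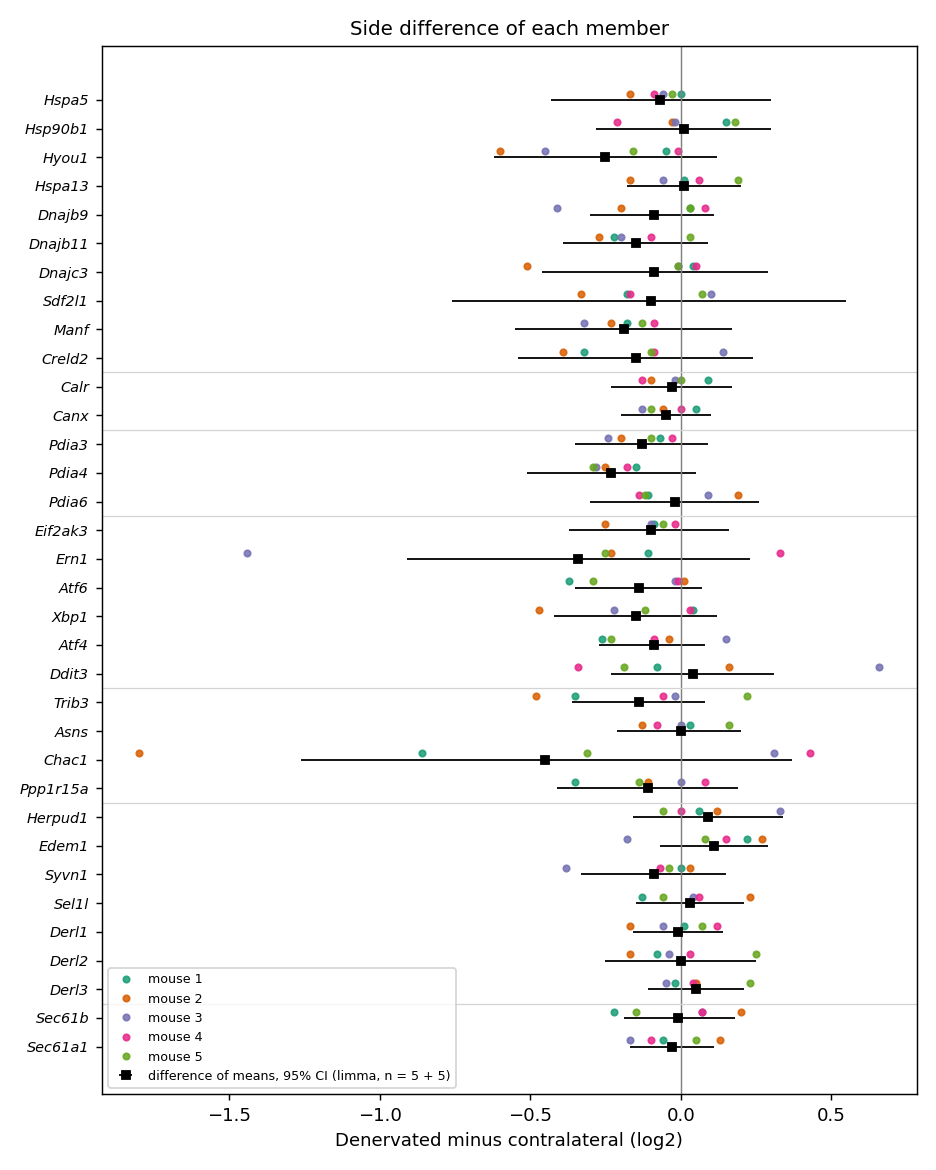
Denervated minus contralateral difference of each member on the log2 scale, as the difference of group means with its 95% confidence interval from limma (black squares, n = 5 arrays a group) and as the difference within each mouse (coloured points). Most squares lie slightly left of 0. The intervals are those of the fit without the block, in which the widest belong to Chac1, Sdf2l1 and Ern1.

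Among the chaperones of the ER lumen the largest difference was that of Hyou1, a nucleotide exchange factor of BiP. Its log2 values were 5.20, 4.78, 5.11, 5.79 and 5.38 in denervated incisors 1 to 5 and 5.25, 5.38, 5.55, 5.80 and 5.54 in contralateral incisors 1 to 5. Denervated array 2 was the lowest of all 10, array 4 was high on both sides, and the groups overlapped. The difference was -0.25 ± 0.17 (SE, n = 5; 95% confidence interval -0.62 to 0.12); the blocked fit gave -0.49 to -0.01. Without the denervated arrays 2 and 3 it was -0.05 in the unpaired fit, and without mice 2 and 3 it was -0.07 in the blocked one. Leaving out single arrays gave -0.39 to -0.13, and both other probe sets of the gene had the same direction.

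Manf, a stress-inducible cofactor of BiP that can also be secreted, was lower on the denervated side in each mouse. The values were 8.79, 8.62, 8.50, 9.34 and 8.94 in denervated incisors 1 to 5 and 8.97, 8.85, 8.82, 9.43 and 9.06 in contralateral incisors 1 to 5. The within-mouse differences were -0.18, -0.23, -0.32, -0.09 and -0.13, narrower than the range of 0.72 between the mouse means. The difference of the means was -0.19 ± 0.16 (SE), a level 0.878 times the contralateral one, and the interval with the mouse as a block was -0.35 to -0.03. Without the denervated arrays 2 and 3 it was 0.00 in the unpaired fit, and without mice 2 and 3 it was -0.13 in the blocked one. Leaving out single arrays gave -0.31 to -0.09.

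Hspa5, the gene of BiP, the central chaperone of the lumen and the protein that holds the sensors inactive, had nearly equal levels on both sides in the probe set used. It had 10.75, 10.52, 10.82, 11.33 and 10.96 in denervated incisors 1 to 5 and 10.75, 10.69, 10.89, 11.42 and 10.99 in contralateral incisors 1 to 5. Both incisors of mouse 4 stood above the other arrays, and both of mouse 2 were the lowest of their side. The difference was -0.07, and its 95% confidence interval of -0.43 to 0.30 narrowed to -0.22 to 0.08 once the mouse entered as a block. It was lower in each mouse, in mouse 1 by less than the last printed decimal. Its other 2 probe sets differed by -0.01 and by -0.43, the latter with a mean of 6.22 and lower in each mouse. With the mean of probe sets the difference of Hspa5 was -0.17. Hsp90b1, which encodes endoplasmin, had 10.47, 10.20, 10.40, 10.58 and 10.80 in the denervated and 10.32, 10.22, 10.42, 10.79 and 10.63 in the contralateral incisors. Its difference of 0.01 (-0.28 to 0.30) had no common direction across mice, and 1 of its 2 probe sets had the opposite sign.

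The stress-inducible genes Creld2 and Sdf2l1 varied more between mice than between sides. Creld2 had 6.96, 6.79, 7.36, 7.72 and 7.32 in denervated incisors 1 to 5 and 7.29, 7.18, 7.22, 7.81 and 7.42 in contralateral incisors 1 to 5. Its difference was -0.15 ± 0.18 (SE), with a higher denervated value in mouse 3 and lower ones in the others. Sdf2l1, whose product works with the co-chaperone encoded by Dnajb11, had 5.02, 4.79, 4.99, 6.16 and 5.35 in denervated incisors 1 to 5 and 5.21, 5.12, 4.89, 6.32 and 5.28 in contralateral incisors 1 to 5. Both incisors of mouse 4 were well above the other arrays, and the difference between sides was -0.10 ± 0.30 (SE). The J-domain co-chaperone genes Dnajb11, Dnajc3 and Dnajb9 differed by -0.15, -0.09 and -0.09, with -0.51 for Dnajc3 in mouse 2, and Hspa13, which encodes a chaperone related to BiP, by 0.01.

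The disulfide isomerases, which form and reshuffle disulfide bonds of secreted proteins, included the member with the smallest p. For Pdia4 the values were 7.51, 7.36, 7.33, 7.89 and 7.57 in denervated incisors 1 to 5 and 7.65, 7.61, 7.61, 8.07 and 7.86 in contralateral incisors 1 to 5. It was lower on the denervated side in all 5 mice, with differences of -0.15, -0.25, -0.28, -0.18 and -0.29, and this spread was small beside the range of 0.51 between mouse means. The difference was -0.23 ± 0.13 (SE; -0.51 to 0.05), a level 0.853 times the contralateral one, and its interval with the block was -0.38 to -0.08 (unadjusted limma p 0.00778, adjusted p 0.399). Its second probe set has a mean of 0.85, close to the bottom of the scale, and differed by -0.02. Without the denervated arrays 2 and 3 it was -0.10 for the probe set used in the unpaired fit, and without mice 2 and 3 the blocked difference was -0.21. Leaving out single arrays gave -0.32 to -0.15 in the unpaired fit. Pdia3, the isomerase that works with the lectin chaperones on glycoproteins, was also lower in each mouse, with a difference of -0.13 (-0.35 to 0.09), and Pdia6 differed by -0.02 (-0.30 to 0.26). The lectin chaperone genes Calr and Canx, which bind monoglucosylated glycoproteins, differed by -0.03 (-0.23 to 0.17) and -0.05 (-0.20 to 0.10), among the narrower intervals of the members.

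Of the sensors, Ern1 showed the widest spread. Its log2 values were 7.31, 7.43, 5.99, 7.41 and 7.42 in denervated incisors 1 to 5 and 7.42, 7.65, 7.43, 7.09 and 7.67 in contralateral incisors 1 to 5. Denervated array 3 stood alone, 1.44 below the contralateral incisor of the same mouse, while mouse 4 had a higher denervated value. The difference of -0.34 ± 0.26 (SE) was -0.06 without that array and -0.43 to -0.29 without any other single array. The same array was poor in transcripts of the enamel-forming epithelium: the mean gene-centred value of 11 epithelial markers was -2.64 there and between 0.14 and 0.61 in the other denervated arrays, and the enamelin gene Enam was at 0.82 against 8.81 to 9.97. Whether Ern1 followed the epithelium was not tested. The other 4 probe sets of Ern1 had means of at most 2.42, near the low end, and the highest of them differed by -0.25 in mouse 3.

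The other sensors varied less. Eif2ak3, the PERK gene, had 6.38, 5.94, 6.26, 6.38 and 6.57 in denervated incisors 1 to 5 and 6.47, 6.18, 6.36, 6.41 and 6.63 in contralateral incisors 1 to 5. It was lower in each mouse, by at most 0.25, and its difference was -0.10 ± 0.12 (SE), with all 3 probe sets in this direction. Atf6 had 5.74, 6.10, 5.92, 5.97 and 5.61 in denervated incisors 1 to 5 and 6.11, 6.09, 5.94, 5.98 and 5.90 in contralateral incisors 1 to 5. The difference of -0.14 ± 0.10 (SE) came from mice 1 and 5, at -0.37 and -0.29, and the other mice lay within 0.02 of 0.

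The transcription factors of the response had no common direction across mice. For Xbp1 the values were 9.50, 9.18, 9.58, 9.82 and 9.71 in denervated incisors 1 to 5 and 9.46, 9.65, 9.80, 9.80 and 9.83 in contralateral incisors 1 to 5. Mouse 2 had the largest within-mouse difference, -0.47, and the mean difference was -0.15 ± 0.12 (SE), with all 4 probe sets lower on average. Atf4, the effector of the PERK arm, had 7.60, 7.81, 7.92, 7.81 and 7.83 in denervated incisors 1 to 5 and 7.86, 7.85, 7.77, 7.90 and 8.06 in contralateral incisors 1 to 5. Its difference was -0.09 ± 0.08 (SE), with 1 of 3 probe sets in the opposite direction. Ddit3, which encodes the pro-apoptotic factor CHOP, had 4.41, 4.70, 4.94, 4.39 and 4.51 in denervated incisors 1 to 5 and 4.49, 4.54, 4.27, 4.73 and 4.70 in contralateral incisors 1 to 5. Its highest value was that of denervated array 3, 0.66 above its partner, mouse 4 went the other way by -0.34, and the mean difference was 0.04 ± 0.12 (SE).

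Among the genes downstream of ATF4 and CHOP, Chac1 had the lowest difference of all members and the other 3 lay between -0.14 and 0.00. Chac1, which encodes a glutathione-degrading enzyme, had 3.84, 2.69, 5.04, 3.96 and 3.86 in denervated incisors 1 to 5 and 4.69, 4.49, 4.73, 3.53 and 4.17 in contralateral incisors 1 to 5. Denervated array 2 was the lowest and denervated array 3 the highest of the 10 arrays, and the within-mouse differences ran from -1.80 in mouse 2 to 0.43 in mouse 4. The mean difference was -0.45 (95% confidence interval -1.26 to 0.37), and only 1 probe set reads this gene. It was -0.15 without denervated array 2, -0.74 without denervated array 3, -0.44 without both and -0.64 without contralateral array 4. In denervated array 2 the mean gene-centred value of 9 odontoblast markers was -0.50, against -0.09 to 0.21 in the other denervated arrays, and that of 7 Schwann cell markers 1.95, against -0.46 to 0.47; their part in the value of Chac1 was not tested. Ppp1r15a, which encodes the subunit that reverses translational arrest, differed by -0.11 ± 0.14 (SE), and Asns, the asparagine synthetase gene, by 0.00 (-0.21 to 0.20). Trib3, a feedback inhibitor of this arm, had a mean of 1.53, close to the bottom of the scale, so that its difference of -0.14 is one between values that may be background.

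Genes of ER-associated degradation and of the translocon had small differences. Of the 7 degradation genes 4 had a higher mean on the denervated side, a direction that 55.8% of all genes had. Edem1, which directs misfolded glycoproteins to degradation, differed by 0.11 (-0.07 to 0.29; higher in 4 of 5 mice), and Herpud1, an organiser of the degradation complex, by 0.09 (-0.16 to 0.34; higher in 4 of 5 mice). The ubiquitin ligase gene Syvn1 differed by -0.09 (-0.33 to 0.15) and Sel1l, its adaptor, by 0.03 (-0.15 to 0.21), with 2 of 5 probe sets of Sel1l in this direction. The channel genes Derl1 and Derl2 differed by -0.01 (-0.16 to 0.14) and 0.00 (-0.25 to 0.25). Derl3 had a mean of 1.91 and a range of 1.69 to 2.00, near the low end. Sec61a1 and Sec61b, subunits of the channel through which new proteins enter the ER, differed by -0.03 (-0.17 to 0.11) and -0.01 (-0.19 to 0.18).

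In undivided sums of squares more of the variation lay between mice than between sides. Of the 9 degrees of freedom among 10 arrays 4 lie between mice and 1 between sides. In all 34 members (and in 89.3% of all genes) the share of the sum of squares that lay between mouse means exceeded that between sides. The shares are not divided by the degrees of freedom, so this count does not compare mouse and side on equal terms. Per degree of freedom the order can turn around, as for Edem1 (37% between mice, 20% between sides). The median shares were 72.3% between mice and 7.21% between sides for the members, against 52.4% and 7.65% over all genes. For Hspa5 97.1% lay between mice and 1.72% between sides, and for Sdf2l1 96.1% and 1.06%. A limma F test over the 5 mice, with the side in the model and chosen after the values were seen, called 1 of 34 members, Sdf2l1 (adjusted p 0.0140; 2.94%, against 1.26% of all genes). Hspa5 and Manf had adjusted p values of 0.0525 and 0.0677. At an unadjusted p under 0.05 there were 14 members (41.2%, against 15.1% of all genes), 8 of the 10 lumenal chaperone genes and all 3 disulfide isomerase genes among them, but 1 of 6 sensor and factor genes. Since pairing by number was itself checked on these arrays, the test describes arrays of equal number. A difference between animals cannot be told apart here from any handling step that such arrays shared.

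Mouse 4 was the high one for the chaperones. In 15 of the 34 members the array numbered 4 was the highest of its side on both sides (44.1%, against 4.97% of all genes), a count chosen after the values were seen. The mean gene-centred value of the 10 lumenal chaperone genes was 0.34 and 0.39 in the denervated and contralateral incisors of mouse 4, and between -0.39 and 0.09 in the other 8 arrays. For the 3 disulfide isomerase genes it was 0.20 and 0.32, against at most 0.10 elsewhere. Mean values of Sdf2l1 over both incisors were 6.24 in mouse 4 and 4.94 to 5.32 in the other mice. The values of Sdf2l1 in every array were added after they had been seen, because it was the sole call of the F test. The ATF4 and CHOP targets did not share this: their mean was -0.12 and -0.21 in mouse 4. Without both arrays of mouse 4 the limma F test over the remaining mice called 0 members and 93 genes (0.511%), and at an unadjusted p under 0.05 there were 3 members, Hsp90b1, Dnajc3 and Eif2ak3 (8.82%, against 13.3% of all genes). Leaving out mouse 1, 2 or 5 singly, Sdf2l1 was the sole member called (2.94%), against 0.731%, 1.07% and 0.253% of all genes. Without mouse 3 Hspa5 and Sdf2l1 were called, against 1.93% of all genes. Among genes with a mean of at least 4 the members called were Hspa5, Sdf2l1 and Manf (3 of 31), against 190 of the 7919 genes (2.4%).

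**Figure D3:**
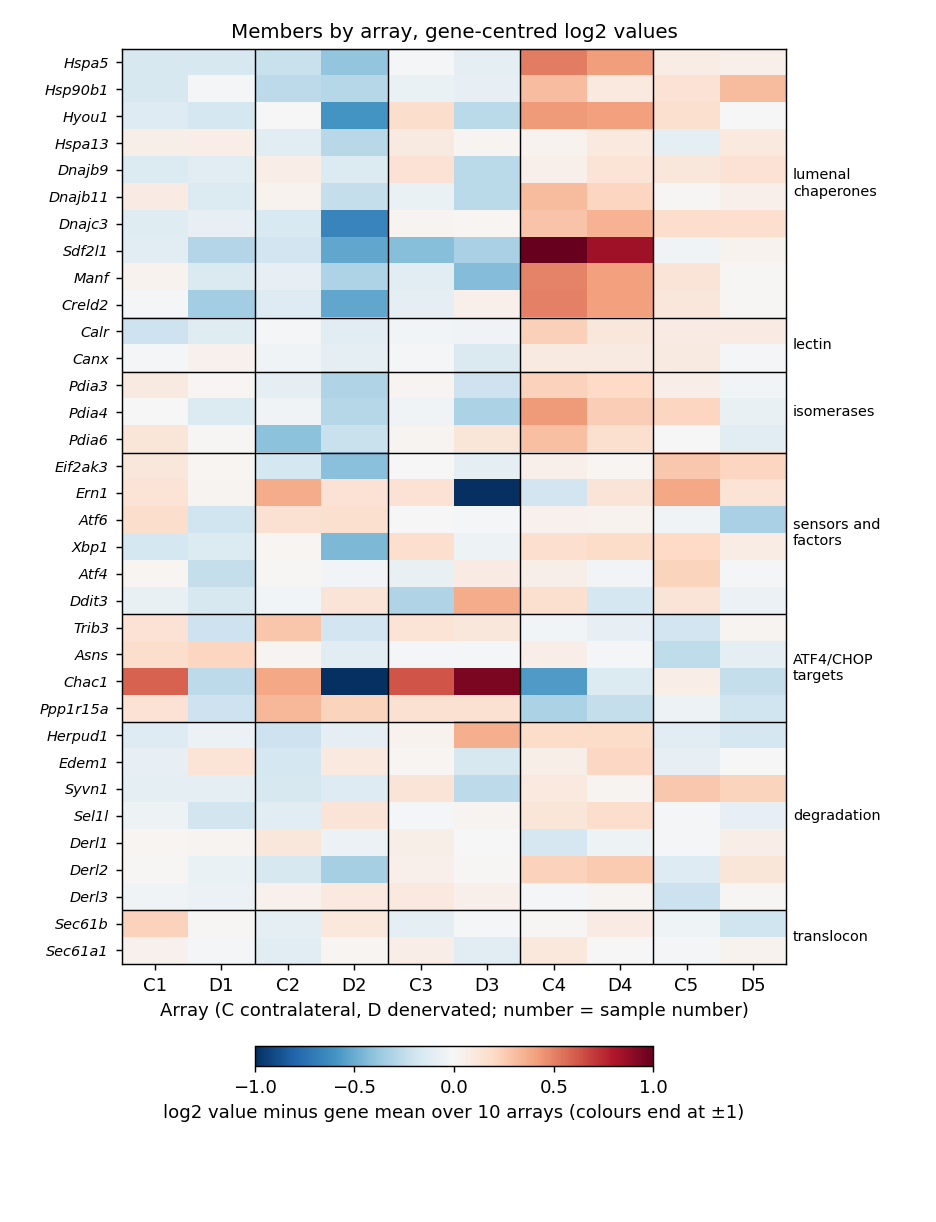
Log2 value minus the gene's mean over 10 arrays (colour) for each of the 34 members (rows, by role) in each array (columns, C contralateral, D denervated, numbered by sample). Both arrays numbered 4 are red in most chaperone and isomerase rows, with Sdf2l1 the strongest, and single cells stand out for Ern1 in D3 and Chac1 in D2.

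**Figure D4:**
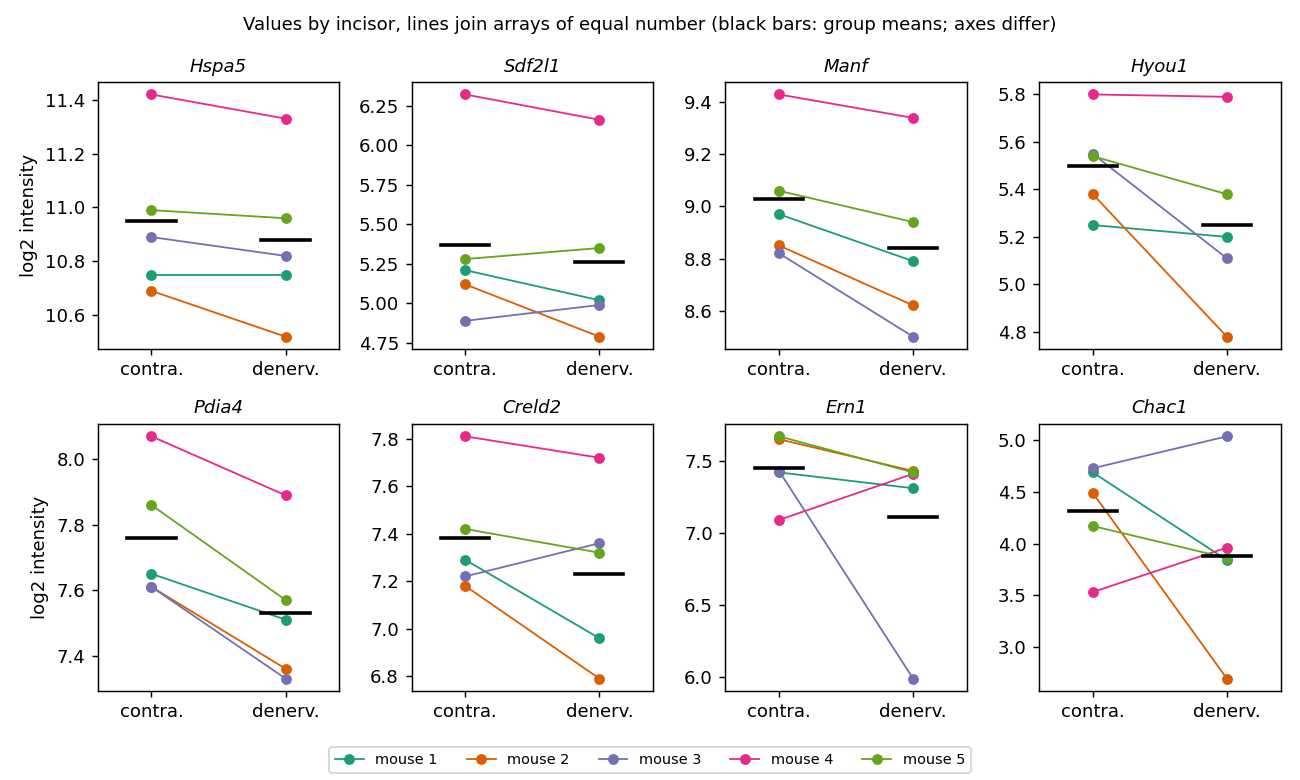
Log2 intensity of 8 members on the contralateral and denervated side, with lines joining arrays of equal number and black bars for the group means (n = 5). In Hspa5, Sdf2l1, Manf, Hyou1, Pdia4 and Creld2 mouse 4 lies on top on both sides, whereas Ern1 drops in mouse 3 to 5.99 and Chac1 in mouse 2 to 2.69.

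Members with an exact match to ERSE or ERSE-II were set beside those with a window and no such match. The mean gene-centred value of these 11 genes was 0.19 and 0.26 in the denervated and contralateral incisors of mouse 4 and -0.24 to 0.06 elsewhere, and the mean difference between sides was -0.04. For the 17 members with a window and neither element it was 0.11 and 0.09 in mouse 4, with a difference of -0.10. At an unadjusted p under 0.05 the F test over mice held 7 of the 11 and 5 of the 17, against 15.1% of all genes. At the adjusted p it called 0 of the 11 and 1 of the 17, Sdf2l1. The 18 measured genes outside the list that carry either element had -0.03 and -0.01 in mouse 4, 2 of 18 at an unadjusted p under 0.05 in the F test, and 7 of them had a mean below 2. The difference between these groups of genes was not tested.

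Other genes of the pathway, listed with earlier results of these data known, gave 0 calls in either direction in limma's test with and without the block. Of 23 other folding enzymes 19 had a lower and 4 a higher mean on the denervated side, with a median difference of -0.05 and 0 genes at an unadjusted p under 0.05. The shares over all genes were 44.2% lower and 55.8% higher. The oxidoreductase genes Erp44 and P4hb differed by -0.16 ± 0.08 and -0.11 ± 0.06 (SE), P4hb lower in 5 of 5 mice. The 16 measured genes of collagen folding and export, a client load of odontoblasts, had the lowest median, -0.15, with 14 lower and 2 higher; at an unadjusted p under 0.05 there were 2 lower and 1 higher, or 5 lower and 1 higher with the mouse as a block (2.11% and 2.93% of all genes were lower in the respective fits). P4ha1, the catalytic subunit gene of collagen prolyl hydroxylase, differed by -0.44 ± 0.15 (SE; adjusted p 0.79) and Tmem38b, a cation channel gene of the ER, by 0.28 ± 0.11 (SE; adjusted p 0.79). The mean gene-centred value of the 16 genes was -0.33 in denervated array 2, where odontoblast markers were low, and between -0.11 and 0.10 in the other denervated arrays. Erlec1, a lectin gene of degradation, differed by -0.25 ± 0.13 (SE; lower in 5 of 5 mice). The median was -0.04 over the 17 degradation genes of this kind, Erlec1 included, and -0.05 over 15 further translocon and signal peptidase genes.

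The regulators outside the list leaned neither way. Of 19 other stress sensors and factors 9 were lower and 10 higher, with a median of 0.02 (44.2% of all genes were lower and 55.8% higher). Eif2ak4, the kinase gene that senses amino acid lack, differed by 0.35 ± 0.12 (SE) and was higher in 5 of 5 mice, and Creb3l2, a membrane-bound factor of secretory cells, differed by -0.15 ± 0.07 (SE) and was lower in 5 of 5. Of 22 genes of amino acid supply and tRNA charging under ATF4, 9 were lower and 13 higher, with a median of 0.03. Slc7a11, the cystine transporter gene, differed by -0.32 ± 0.10 (SE), between means of 0.88 and 1.19 at the bottom of the scale, and the lipoprotein receptor gene Vldlr by -0.30 ± 0.12 (SE). Each of these 4 genes had a limma adjusted p of 0.79.

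Markers of other cells had unequal means on the sides, although 0 of them passed the threshold on the adjusted p. Of the 9 measured dental mesenchyme markers 8 had a mean above 2 (Msx1 had 9.59 ± 0.28 and 9.51 ± 0.17, SD, n = 5), but enamel genes were abundant too, with Ambn at 13.02 ± 0.05 in the contralateral incisors. Over all genes 55.8% had a higher and 44.2% a lower denervated mean. All 10 macrophage markers had a higher denervated mean. In limma's test without the block 7 of them had an unadjusted p under 0.05, against 4.1% of all genes that were higher at that p. Their mean level was 6.00 to 6.80 in denervated and 5.63 to 5.95 in contralateral arrays, and the mean gene-centred value was 0.68 and 0.73 in denervated arrays 2 and 3. Smooth muscle and pericyte markers were higher in 8 of 9, with 5.24 to 6.27 against 4.98 to 5.39 (Des with a mean below 2), and Schwann cell markers in 6 of 7, with 2.67 to 5.07 against 2.65 to 3.18 (Sox10, S100b and Egr2 with a mean below 2). Endothelial markers were higher in 9 of 9, with 4.35 to 5.18 against 4.44 to 4.76. Averaged over the endothelial markers, mice 2 and 3 differed by 0.61 and 0.56 and the other mice by -0.10 to -0.03. For Schwann cell markers mice 2 and 3 had 2.14 and 0.90, against -0.24 to 0.08. For smooth muscle and pericyte markers they had 1.09 and 0.79, against -0.15 to 0.15. Odontoblast markers were lower in 7 of 9, with 8.76 to 9.48 against 9.30 to 9.39 (Mepe with a mean below 2), and epithelial markers in 10 of 11, with 5.96 to 9.21 against 8.47 to 9.24. The epithelial mean differed by -2.51 in mouse 3 and -0.23 to 0.48 in the others. The odontoblast mean differed by -0.54 in mouse 2 and -0.22 to 0.14 in the others. The part of all these cells in the differences of the members was not tested. In such bulk samples fewer cells of a type and less RNA per cell cannot be told apart.

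Most markers of plasma, muscle and red cells lay near the low end of the scale. Of 8 measured plasma and B cell markers, a lineage rich in Xbp1 and Derl3, 7 had a mean below 2, Mzb1 among them at 0.78 ± 0.06 and 0.80 ± 0.13 (SD, n = 5). Jchain was the exception. Of these markers 6 were lower and 2 higher on the denervated side, with differences from -0.11 to 1.13. All 8 skeletal muscle markers and all 3 measured red cell markers were below 2 as well. The mean gene-centred value of the plasma and B cell markers was 0.26 and 0.13 in the denervated and contralateral incisors of mouse 4 and -0.20 to 0.24 in the other arrays. In mouse 4 the mean gene-centred value was -0.01 for odontoblast, 0.37 for epithelial, -0.06 for macrophage and -0.23 for endothelial markers over both incisors. The epithelial value was 0.61 in its denervated and 0.12 in its contralateral incisor. Over both incisors the epithelial value was 0.07, 0.42, -1.39 and 0.53 in mice 1, 2, 3 and 5. The part of these cells in the values of mouse 4 was not tested.

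**Figure D5:**
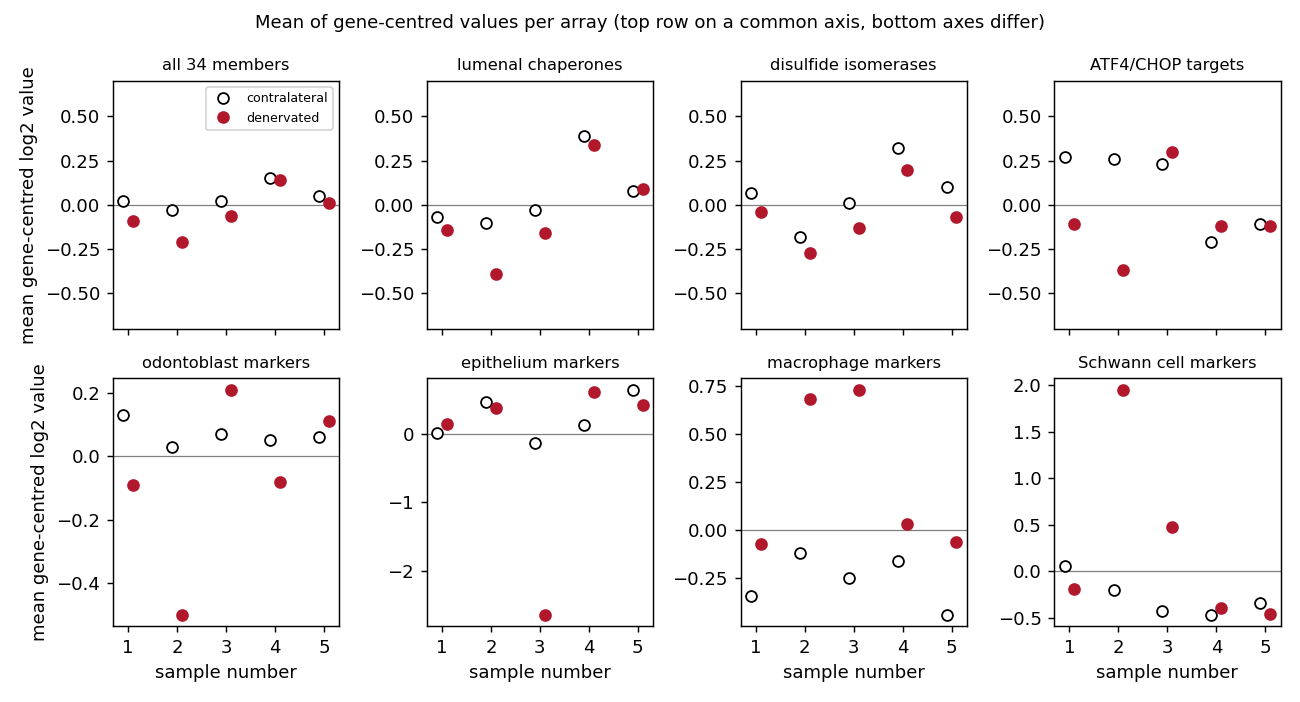
Mean gene-centred log2 value per array, by sample number, for the 34 members and 3 of their role groups (top, common axis) and for 4 marker lists (bottom, separate axes); open circles are contralateral and red circles denervated. The chaperone mean peaks in both arrays numbered 4, denervated array 2 is the lowest for chaperones, odontoblast markers and ATF4 targets, and denervated array 3 is at -2.64 for epithelial markers.

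The precision of these values was limited by the number of arrays. The median standard error of a member's difference was 0.11 without and 0.08 with the mouse as a block, against 0.10 over all genes without it. Array medians lay between 1.48 and 1.54 and the highest values between 12.9 and 13.2, and 40.7% of all genes but 2 of the members, Trib3 and Derl3 (5.88%), had a mean below 2. Of the 25 members with several probe sets 16 had the same direction in all of them.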

How the data were processed

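Total RNA of 10 samples was hybridised to Affymetrix arrays. The deposited values are log2 intensities made by the authors with RMA, per the submitters' processing notes; the RMA version is not given in the sources used here. Of 45101 probe sets 64 controls were left out; 34945 name 1 gene, 932 several and 9160 none. Per gene the probe set with the highest mean over all 10 arrays was kept (18193 genes). Groups were compared with limma 3.58.1 (lmFit, eBayes; R 4.3.3), two-sided, with Benjamini-Hochberg adjustment over all genes; the fits were tested on simulated data. Deviations of arrays of equal number correlated at 0.18 to 0.57 (5 pairs), and other pairs at -0.41 to 0.22 (20 pairs); for 4 of 5 denervated arrays the closest contralateral array bore the same number. The numbers, read with the labels' design of both incisors of 5 mice, were therefore taken to pair the samples. A gene-centred value is a log2 value minus the gene's mean over 10 arrays. Promoter windows are those of RefSeq; protein sequences were not used here. The members and gene lists were chosen with earlier results of these data known. Values per array were given for members with an unadjusted p under 0.05 in either fit, the 3 largest differences among the rest and 8 regulators and chaperones chosen by name (Ern1 was in both). They were also given for Sdf2l1, added after its values were seen. Of each pathway list at most 2 genes (from those with the smallest p) were named, with the difference and its SE. The F test between mice, its alternatives and the blocked fit without mice 2 and 3 were chosen after seeing the data. Other alternatives were the mean of probe sets, a filter on low values, quantile normalization, median centring, a variance trend and leaving out arrays.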

Additional observations from a re-analysis of the deposited data

Results flagged for a closer look

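In 3 of 84 groups of 5 arrays (each member and each group mean, per side) the lowest or highest array lay far from the others, by Dixon's test at a rate that chance gives in about 1 of 20 groups. Ern1 was 5.99 in denervated array 3, and the nearest array of that side was 7.31. Hspa13 was 7.95 in denervated array 2, and the nearest was 8.26. Sdf2l1 was 6.32 in contralateral array 4, and the nearest was 5.28.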

How the results depend on the processing

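With limma 0 genes and 0 members passed under each of the 18 alternatives, and with the replicate block, which pairs arrays by mouse, 0 genes passed and 1805 rather than 1129 had an unadjusted p under 0.05; the block changed no other call. The number of members with a higher mean was 7, 4 after quantile normalization, 18 without denervated replicates 2 and 3, and 5 to 13 leaving out each array in turn (13 without contralateral replicate 4 and without denervated replicate 2). The median difference was -0.09, 0.00 without denervated replicates 2 and 3, and -0.11 to -0.03 leaving out each array. The members that differed between mice numbered 1, 3 among genes with a mean of at least 4, and 0 to 2 leaving out each mouse (0 without mouse 4, 2 without mouse 3); all genes numbered 229, and 46 to 352 (133 without mouse 1, 352 without 3, 93 without 4 and 46 without 5). None of the sign changes concerned a called value: 18 of 34 members changed sign under some alternative, with differences of at most 0.13 in size to begin with, and 16 did not. The fits that left out single arrays or denervated replicates 2 and 3 had no block and kept the other incisor of the mouse. Without denervated replicates 2 and 3, 15 members changed sign. With the block and without mice 2 and 3, 7 did, and there Hspa5 was -0.04, Pdia3 -0.07 and Eif2ak3 -0.06. With the mean of probe sets Hsp90b1 was -0.05, Hspa13 -0.03, Sel1l -0.03 and Derl2 0.06. After quantile normalization Hsp90b1 was 0.00, Hspa13 -0.01 and Ddit3 -0.02, and after median centring Asns 0.00 and Derl2 0.00. Without denervated replicates 2 and 3 Hspa5 was 0.07, Dnajb9 0.01, Dnajc3 0.10, Sdf2l1 0.15, Calr 0.01, Canx 0.02, Pdia3 0.00, Pdia6 0.01, Eif2ak3 0.03, Ddit3 -0.11, Asns 0.04, Syvn1 0.01, Sel1l -0.02, Derl1 0.01 and Derl2 0.10. With the replicate block and without mice 2 and 3 Dnajb9 was 0.05, Dnajc3 0.03, Ddit3 -0.20, Asns 0.04, Sel1l -0.04, Derl1 0.07 and Derl2 0.07. Leaving out each array in turn gave ranges of -0.07 to 0.09 for Hsp90b1, -0.12 to 0.06 for Pdia6, -0.07 to 0.04 for Asns, -0.07 to 0.08 for Derl2, -0.03 to 0.05 for Sec61b, -0.02 to 0.08 for Hspa13, -0.05 to 0.02 for Derl1, -0.04 to 0.09 for Ddit3, -0.18 to 0.05 for Hspa5, -0.33 to 0.14 for Sdf2l1, -0.09 to 0.03 for Calr, -0.19 to 0.07 for Dnajc3 and -0.01 to 0.08 for Sel1l. The cause was not tested. Signals near the low end of the scale limit Trib3 and Derl3.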
